A study of Mus musculus with 6 samples.

Results

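The mitochondrial chaperones and quality-control proteases were followed through 10 genes listed by name. No value entered the listing rule, but the genes were chosen with earlier results of these data known. Hspd1, Hspe1, Hspa9 and Trap1 stand for the chaperones, and Lonp1, Clpp, Clpx, Afg3l2, Spg7 and Yme1l1 for the proteases. All 10 were found by symbol among the 54146 genes of the count files, and all 10 were among the 17308 genes kept by the filter on low counts. RNA was sequenced from kidneys of B6C3F1/J mice at 12 weeks (postnatal day 84), in 3 libraries labelled KspCre Tfam f/f (KspCre-labelled) and 3 labelled Tfam f/f (Tfam f/f-labelled). Animals of both labels carry floxed Tfam, and the label KspCre adds a Cre transgene under the promoter of Ksp-cadherin, which is active in tubule epithelium. Podocytes, vessels, stroma and immune cells of such kidneys should therefore keep Tfam. The number of animals behind each library is not stated, and the p-values then speak of the spread among these 6 libraries alone, which may be technical.

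The targeted gene went against the labels. Tfam, which packages mitochondrial DNA and starts its transcription, stood at 63.1, 63.4 and 61.3 normalized CPM (counts per 1e6 counts) in KspCre-labelled libraries, and at 30.3, 33.6 and 23.2 in Tfam f/f-labelled libraries. It was 2.15-fold higher in KspCre-labelled libraries (edgeR quasi-likelihood test with Benjamini-Hochberg adjustment, adjusted p = 0.00107). Transcripts of mitochondrial DNA were 11.2% of all counts in each KspCre-labelled library, and 2.43% to 5.77% in Tfam f/f-labelled libraries. Every direction below is therefore between labels and not between known genotypes.

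Most proteins of mitochondria are made in the cytosol and enter the matrix unfolded. Hspa9 (mortalin), the HSP70 of the matrix, pulls them in and folds them, the chaperonin ring of Hspd1 (HSP60) with its lid Hspe1 (HSP10) folds a further set, and Trap1 is the HSP90 of mitochondria. Lonp1 and the ClpXP complex, in which the Clpx ring unfolds and the Clpp barrel cuts, degrade damaged matrix proteins. In the inner membrane, Afg3l2, Spg7 and, in mouse, Afg3l1 form the m-AAA protease, which faces the matrix, and Yme1l1 forms the i-AAA protease, which faces the intermembrane space. In cultured mammalian cells several of these genes are known to be induced when mitochondrial proteins misfold or when the stress factors ATF4, ATF5 and CHOP are active.

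Hspd1 and Hspe1 lie head to head on chromosome 1, at 55077835 to 55088243 on the minus strand and 55088132 to 55091307 on the plus strand (mm10), and start from a shared control region. The RefSeq promoter windows of the GRCm38.p6 build, which run from 250 bases before to 50 bases after a start, were searched on both strands for 5 motifs. These were TGATGNAA (core of the composite site of ATF4 and CHOP), TTCNNGAA and GAANNTTC (neighbouring units of the heat shock element), the palindrome of NRF1, and TGACGTCA (cAMP response element). They were present in 3.97%, 8.52%, 7.86%, 4.6% and 1.79% of all 32851 windows of this length. Windows of 8 of the 10 genes were examined gene by gene, with a second one for Hspd1. Those of Hspa9 and Afg3l2 were left out, so nothing is said here about motifs near their starts. The shared element is shown because both genes of the pair carry it at the same position. It holds 3 overlapping heat shock matches, in capitals, and lies 127 bases from the nearer RefSeq start of Hspd1 and 72 bases from that of Hspe1 (chr1:55088053-55088082, plus strand). It lies before these starts but after the other RefSeq start of Hspd1, whose window does not reach it. It overlaps the first exon of 1 GENCODE transcript of Hspd1.
Hspd1-Hspe1: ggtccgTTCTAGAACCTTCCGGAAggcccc

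The sequences before the starts of Lonp1 and Clpx are shown because these were the called genes of the matrix proteases and moved in opposite directions. Neither window held any of the 5 motifs. Both are printed 5′ to 3′ up to the base before the start, Lonp1 from the minus strand (chr17:56626904-56627153) and Clpx from the plus strand (chr9:65294010-65294259), with no capitals because nothing matched.
Lonp1: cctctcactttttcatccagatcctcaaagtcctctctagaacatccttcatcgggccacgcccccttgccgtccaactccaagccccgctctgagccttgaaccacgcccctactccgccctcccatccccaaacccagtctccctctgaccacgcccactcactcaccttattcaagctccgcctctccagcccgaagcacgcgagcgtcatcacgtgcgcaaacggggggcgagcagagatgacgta
Clpx: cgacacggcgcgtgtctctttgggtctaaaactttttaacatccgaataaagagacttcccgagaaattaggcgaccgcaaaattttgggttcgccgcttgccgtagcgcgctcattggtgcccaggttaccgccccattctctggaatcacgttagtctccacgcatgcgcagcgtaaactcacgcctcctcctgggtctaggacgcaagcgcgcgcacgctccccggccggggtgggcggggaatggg
Of the other windows, Trap1 held TGACGTCA, Spg7 held the NRF1 motif at 2 places and the other window of Hspd1 held it once. Clpp held 1 heat shock pair after its start, and Yme1l1 held none. A match of letters is a description and not evidence of binding.

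On mm10, Trap1 lies on chromosome 16 (4039971 to 4077827, minus strand), and Lonp1 and Clpp both lie on chromosome 17 (56614297 to 56626887, minus strand, and 56990305 to 56996188, plus strand). Clpx is on chromosome 9 (65294260 to 65330658, plus strand), Spg7 on chromosome 8 (123062942 to 123097760, plus strand) and Yme1l1 on chromosome 2 (23156369 to 23199260, plus strand). Hspa9 (34937414 to 34954357) and Afg3l2 (67404764 to 67449172) are on the minus strand of chromosome 18.

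Of the 10 genes, 5 were higher (Hspd1, Trap1, Clpx, Spg7 and Yme1l1) and Lonp1 was lower in KspCre-labelled libraries, while Hspe1, Hspa9, Clpp and Afg3l2 did not pass. A gene was called where the adjusted p was below 0.05. The share called over all 17308 genes was 46.2%, with 21.3% higher and 24.9% lower. The median log2 fold change was 0.40 over the 10 genes and -0.03 over all genes tested. Values of the 2 labels did not overlap for 8 of the 10 genes, with 6 higher and 2 lower, and for 61.9% of all genes tested, with 29.8% higher and 32.1% lower. All folds are on the TMM scale, which sets the typical gene to no change. Scaling by total counts alone, an alternative chosen after seeing the data, lowers the log2 fold change of the median gene by 0.43, so that 16.5% rather than 46.1% of called genes are higher. The signs of the 6 called genes were the same in all 17 alternatives, but with total counts Trap1, Spg7 and Yme1l1 were not called (adjusted p = 0.148, 0.0764 and 0.508). Without KspCre-labelled replicate 1, 2 or 3, or Tfam f/f-labelled replicate 1, the count of higher genes among the 10 was 3, 3, 3 and 2. Over all genes tested, 2321, 2276, 2299 and 2855 were higher without these libraries, in the same order, against 3690 with all 6 libraries. The share called in either direction was then 29.5%, 28.7%, 28.6% and 36.2%, against 46.2%.

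**Figure D1:**
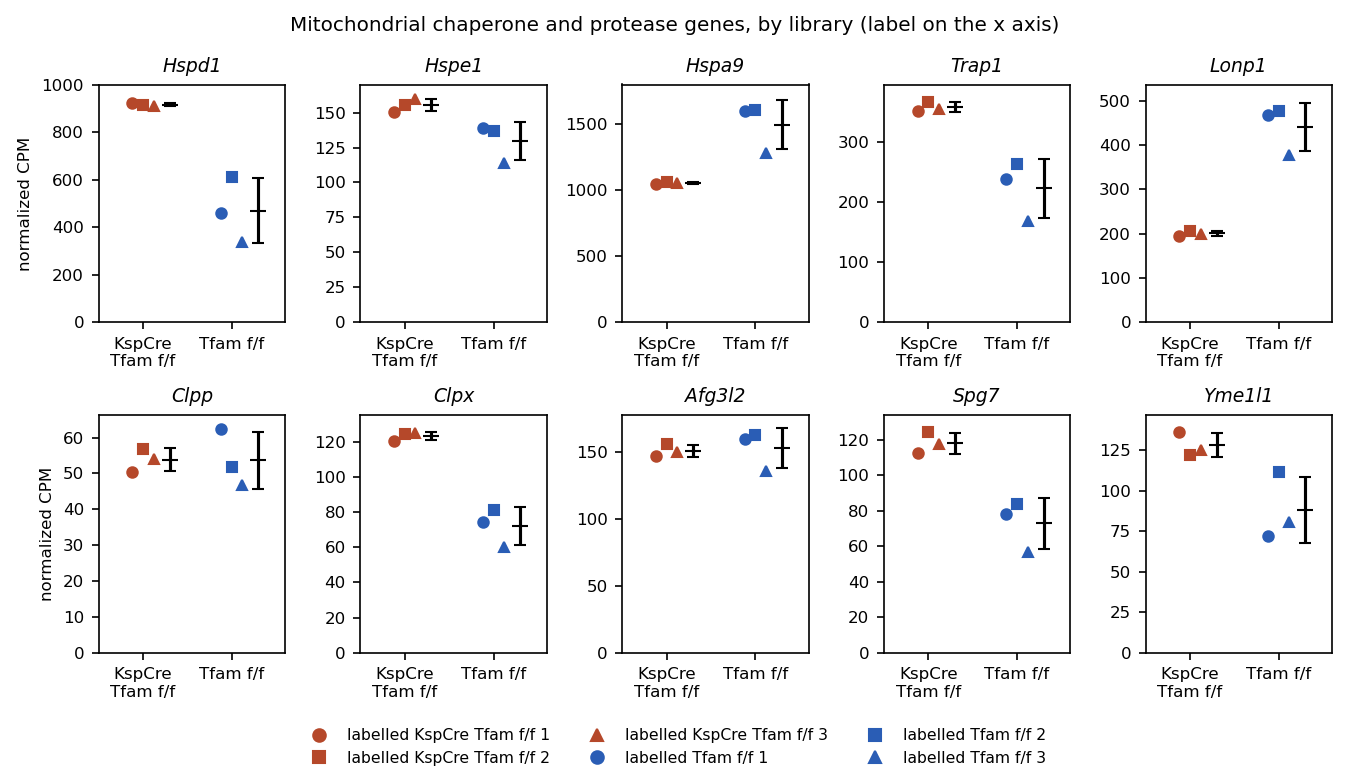
Normalized CPM of each of the 10 genes in the 3 KspCre-labelled libraries (red, left) and the 3 Tfam f/f-labelled ones (blue, right), each panel from 0, with the mean ± SD in black. The red points lie close together in every panel, and Lonp1 and Hspa9 are the genes whose blue points all lie above the red ones.

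Among the 4 chaperones, Hspd1 and Trap1 were higher, and Hspe1 and Hspa9 did not pass. Hspd1, the chaperonin, had 925, 916 and 912.5 normalized CPM in KspCre-labelled libraries, against 461, 611 and 338 in Tfam f/f-labelled libraries. All 3 KspCre-labelled libraries were above the highest of the others, and replicate 3 of the Tfam f/f-labelled libraries was the lowest. Hspd1 was 1.95-fold higher (log2 fold change 0.96, SE 0.23, adjusted p = 0.0129), and the call was lost without Tfam f/f-labelled replicate 1 (adjusted p = 0.0555, the highest of the 17 alternatives, with 8.83e-05 the lowest). Hspe1, which caps the chaperonin, had 151, 156 and 159.5 normalized CPM in KspCre-labelled libraries, against 139, 137 and 114 in Tfam f/f-labelled libraries. These values did not overlap either, but the difference was smaller and did not pass (log2 fold change 0.26, SE 0.11, adjusted p = 0.0998), and its sign turned with total counts (-0.16).

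Hspa9, the matrix HSP70, went the other way in value. It had 1048, 1063 and 1055 normalized CPM in KspCre-labelled libraries, against 1595, 1604 and 1276 in Tfam f/f-labelled libraries. The groups did not overlap, with a log2 fold change of -0.50 (SE 0.19) that did not pass in edgeR (adjusted p = 0.0658). It passed without Tfam f/f-labelled replicate 3 (log2 fold change -0.60, adjusted p = 0.00272) and in DESeq2 (adjusted p = 0.00503), limma voom (0.0411) and with upper-quartile factors (0.0349), and the sign was negative in all 17 alternatives. Trap1, the mitochondrial HSP90, had 353, 367 and 356 normalized CPM in KspCre-labelled libraries, against 238, 263 and 168 in Tfam f/f-labelled libraries. It was 1.61-fold higher (log2 fold change 0.68, SE 0.18, adjusted p = 0.0183). That call was lost without KspCre-labelled replicate 1, 2 or 3 (adjusted p = 0.0581, 0.0655 and 0.0605) and without Tfam f/f-labelled replicate 1 (0.0509). The log2 fold change of Trap1 was then 0.70, 0.68, 0.70 and 0.74. The exons of Trap1 share 54 bases with those of Dnase1 on the opposite strand.

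The compartment counterparts of these chaperones gave different values, and of these 5 genes 1 was called. Hspa5, the HSP70 of the endoplasmic reticulum, averaged 461.5 ± 22 normalized CPM in KspCre-labelled libraries and 365 ± 14.0 in Tfam f/f-labelled libraries (SD, n = 3 each; log2 fold change 0.34, adjusted p = 0.0741). It passed in 5 of the 17 alternatives, among them DESeq2 (0.00381) and without Tfam f/f-labelled replicate 2 or 3 (0.0393 and 0.0368), and with total counts its sign turned (-0.089). Hspa8, the constitutive HSP70 of the cytosol, averaged 2321 ± 92.7 normalized CPM in KspCre-labelled libraries and 1545 ± 169 in Tfam f/f-labelled libraries (log2 fold change 0.59, adjusted p = 0.0507), and passed in 8 of the 17, among them DESeq2 (6.39e-05) and without Tfam f/f-labelled replicate 2 or 3 (0.0248 and 0.0111). Hsp90b1, the HSP90 of the endoplasmic reticulum, was 1.44-fold higher (adjusted p = 0.0173). Its call was lost without any 1 KspCre-labelled library (0.0818, 0.0653 and 0.0560), without Tfam f/f-labelled replicate 1 (0.0576), with the replicate block (0.0666) and with total counts (0.532). Its log2 fold change was 0.49, 0.55 and 0.58 without KspCre-labelled replicate 1, 2 and 3, against 0.53 with all libraries. The cytosolic HSP90 genes Hsp90ab1 (log2 fold change -0.34, adjusted p = 0.183) and Hsp90aa1 (-0.043, adjusted p = 0.808) did not pass. Whether the mitochondrial genes differ from these counterparts in their change was not tested.

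Among the matrix proteases, Lonp1 was lower and Clpx higher, and Clpp did not pass. Lonp1, an ATP-dependent protease that also degrades unbound TFAM protein, had 195, 207 and 199 normalized CPM in KspCre-labelled libraries, against 468, 478 and 379 in Tfam f/f-labelled libraries. Every Tfam f/f-labelled library was well above every library with the other label. Lonp1 was 2.20-fold lower in KspCre-labelled libraries (log2 fold change -1.14, SE 0.15, adjusted p = 0.00125) and was called in all 17 alternatives, with log2 fold changes of -1.56 to -1.06. Tfam, the targeted gene, had the opposite sign (log2 fold change 1.11, SE 0.14), also in all 17 alternatives. Both are RNA values, and a link between Lonp1 and Tfam was not tested.

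Clpx, the unfolding ring of ClpXP, had 121, 125 and 125 normalized CPM in KspCre-labelled libraries, against 74.5, 81.4 and 60.0 in Tfam f/f-labelled libraries. It was 1.71-fold higher (log2 fold change 0.78, SE 0.13, adjusted p = 0.00285) and was called in all 17 alternatives. Clpp, the barrel that cuts what Clpx feeds it, had 50.4, 56.9 and 54.1 normalized CPM in KspCre-labelled libraries, against 62.4, 51.7 and 46.8 in Tfam f/f-labelled libraries. The groups overlapped, and the log2 fold change was 0.0045 (SE 0.12, adjusted p = 0.979). With total counts Clpp was called lower (log2 fold change -0.42, adjusted p = 0.0147): it was lower relative to the library total and near 0 relative to the typical gene.

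In the inner membrane, Spg7 and Yme1l1 were higher and Afg3l2 did not pass. Spg7, the paraplegin subunit of the m-AAA protease, had 112, 124 and 117 normalized CPM in KspCre-labelled libraries, against 78.1, 83.8 and 56.4 in Tfam f/f-labelled libraries. It was 1.62-fold higher (log2 fold change 0.70, SE 0.15, adjusted p = 0.00893). Afg3l2, a subunit that can build the m-AAA ring with or without Spg7, had 147, 156 and 150.4 normalized CPM in KspCre-labelled libraries, against 160.0, 163 and 136 in Tfam f/f-labelled libraries. These ranges overlapped (log2 fold change -0.017, SE 0.11, adjusted p = 0.914), although with total counts Afg3l2 was called lower (-0.44, adjusted p = 0.00673). Afg3l1, the further m-AAA subunit of mouse, which is outside the 10 genes and was picked after its values were seen, averaged 104 ± 4.78 normalized CPM in KspCre-labelled libraries and 78.3 ± 14.1 in Tfam f/f-labelled libraries (log2 fold change 0.41, adjusted p = 0.0446). Its call was lost without KspCre-labelled replicate 1, 2 or 3 (0.0923, 0.135 and 0.11), without Tfam f/f-labelled replicate 1 (0.0606), with upper-quartile factors (0.0649), with the replicate block (0.0506) and with total counts, where its sign turned (-0.0034, adjusted p = 0.983). Without KspCre-labelled replicate 1, 2 and 3 its log2 fold change was 0.45, 0.39 and 0.43.

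Yme1l1, the i-AAA protease that also cuts the fusion protein OPA1, had 137, 122.5 and 125 normalized CPM in KspCre-labelled libraries, against 72.3, 111 and 80.9 in Tfam f/f-labelled libraries. Replicate 2 of the Tfam f/f-labelled libraries came nearest to the other label. Yme1l1 was 1.45-fold higher (log2 fold change 0.54, SE 0.16, adjusted p = 0.0303). This was the least stable of the calls: it was lost with total counts (adjusted p = 0.508), without KspCre-labelled replicate 1, 2 or 3 (0.0989, 0.0706 and 0.0775) and without Tfam f/f-labelled replicate 1 or 3 (0.0928 and 0.0577). In this order of settings, the log2 fold change of Yme1l1 was 0.12, 0.50, 0.58, 0.56, 0.43 and 0.48.

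**Figure D2:**
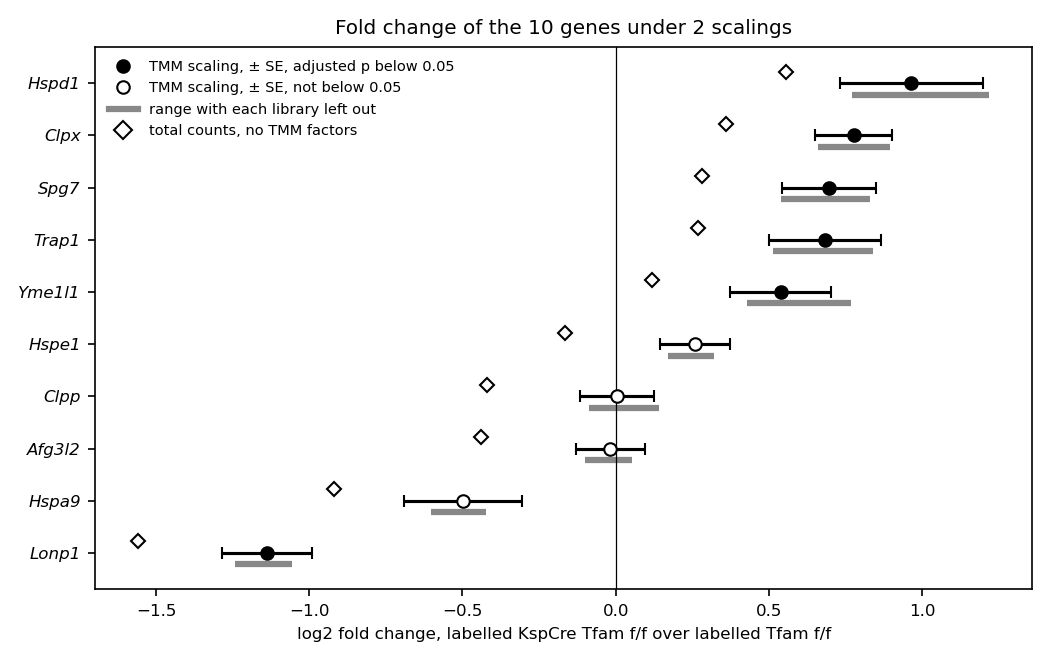
Log2 fold change of each gene, KspCre-labelled over Tfam f/f-labelled libraries, as circles with SE (filled where called), grey bars for the range with each library left out, and diamonds for scaling by total counts. Lonp1 lies below 0 and Hspd1, Clpx, Spg7, Trap1 and Yme1l1 above it under both scalings, while Hspe1 and Clpp change side.

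Ratios of counts within a library do not depend on the scaling, and 8 pairs were compared. The groups did not overlap for any of the 8. They also did not overlap for 61.5% of all pairs of the 17137 tested genes with counts in every library, and the 8 pairs were chosen with earlier results known. Each gave an exact two-sided permutation p of 0.1, which is the smallest that 3 against 3 libraries allow, and 0.1 after Benjamini-Hochberg adjustment over the 8 pairs. The largest difference was of Lonp1 to Hspd1. There were 0.211, 0.226 and 0.218 Lonp1 counts for each Hspd1 count in KspCre-labelled libraries, against 1.01, 0.782 and 1.12 in Tfam f/f-labelled libraries, a 4.4-fold lower ratio.

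Partners in 1 complex also had ratios that did not overlap between the labels. Hspe1 had 0.163, 0.170 and 0.175 counts for each count of Hspd1 in KspCre-labelled libraries, against 0.301, 0.224 and 0.337 in Tfam f/f-labelled libraries. Both genes have processed copies in the genome. Counts assigned to their named pseudogenes were 0.855% to 1.15% of the Hspd1 count and 0.192% to 0.638% of the Hspe1 count. Reads aligned to several places, which were not counted, were 10.4% to 10.8% of all reads listed in KspCre-labelled libraries and 5.06% to 6.74% in Tfam f/f-labelled libraries. Their part in the Hspe1 to Hspd1 ratio was not tested. The exons of the pair also overlap by 112 bases on opposite strands, and the strand setting of the counting is not given in the sources used here.

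Within ClpXP, Clpx had 2.39, 2.19 and 2.31 counts for each count of Clpp in KspCre-labelled libraries, against 1.19, 1.57 and 1.28 in Tfam f/f-labelled libraries. Within the m-AAA protease, Spg7 had 0.762, 0.795 and 0.781 counts for each count of Afg3l2 in KspCre-labelled libraries, against 0.488, 0.513 and 0.415 in Tfam f/f-labelled libraries. The ratio of Spg7 to Afg3l2 was 1.66-fold higher and that of Clpx to Clpp 1.71-fold higher in KspCre-labelled libraries. The log2 ratio of Hspa9 to Hspd1 averaged 0.20 ± 0.019 in KspCre-labelled libraries and 1.70 ± 0.27 in Tfam f/f-labelled libraries (SD, n = 3 each). The smallest difference was of Trap1 to Hspd1 (log2 ratio -1.36 ± 0.036 in KspCre-labelled libraries and -1.06 ± 0.14 in Tfam f/f-labelled libraries). That of Lonp1 to Clpp averaged 1.90 ± 0.047 in KspCre-labelled libraries and 3.04 ± 0.15 in Tfam f/f-labelled libraries. That of Yme1l1 to Afg3l2 averaged -0.24 ± 0.12 in KspCre-labelled libraries and -0.81 ± 0.30 in Tfam f/f-labelled libraries.

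**Figure D3:**
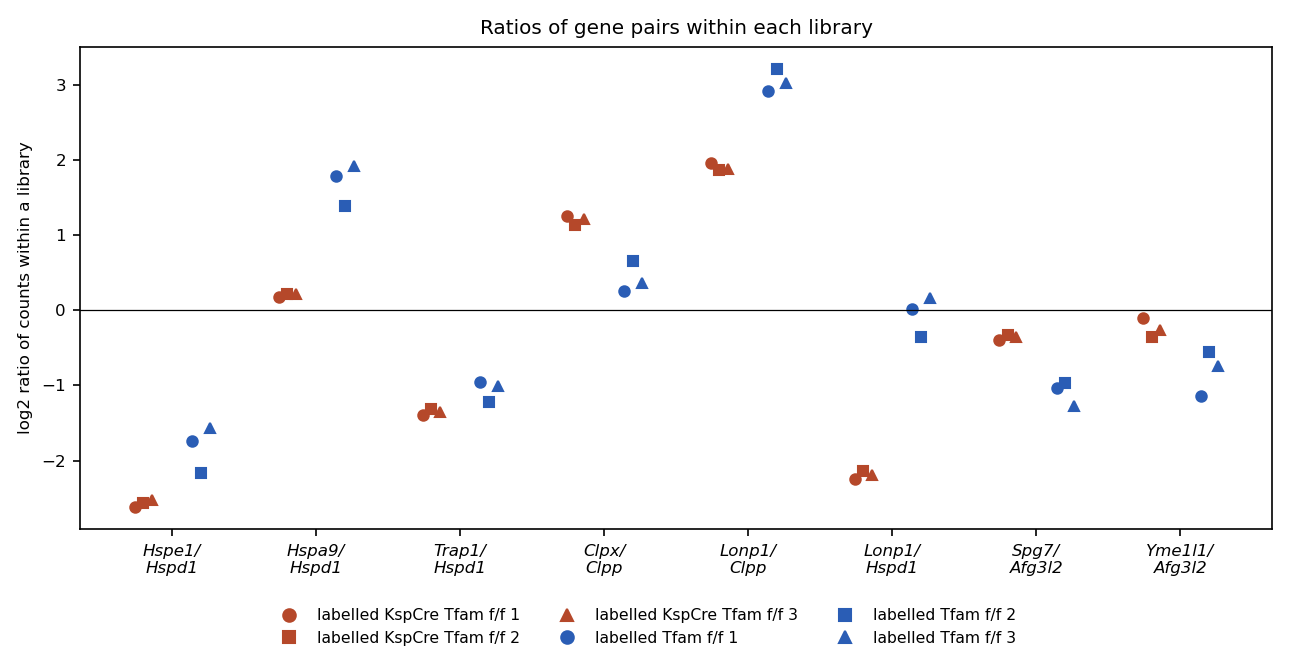
Log2 ratio of the counts of 2 genes within each library, for 8 pairs, with KspCre-labelled libraries in red (left of each pair) and Tfam f/f-labelled libraries in blue. The red and blue points do not overlap in any pair, and the widest gap is for Lonp1 to Hspd1.

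Levels of different genes were compared per length, as TPM (transcripts per 1e6 transcripts) over the union of exons. These values share the scale of the total and serve here only for the order within a label. In KspCre-labelled libraries, Hspd1 was highest (794 to 829 TPM), before Hspa9 (565 to 576), Trap1 (324 to 327) and Hspe1 (242 to 253.5). Lonp1 (106 to 109) and Clpp (97.7 to 107) followed with overlapping values, then Clpx (81.7 to 83.8) and Spg7 (58.8 to 63.0). Yme1l1 (35.0 to 40.4) and Afg3l2 (35.3 to 36.3) were the lowest and overlapped.

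The order differed in Tfam f/f-labelled libraries. There Hspa9 was highest (1199 to 1269 TPM), before Hspd1 (518 to 785), and Lonp1 (351 to 371) followed. Hspe1 (313 to 322.5) and Trap1 (265 to 347) overlapped, and Clpp (144 to 175) and Clpx (69.6 to 79.0) followed. Spg7 (50.5 to 62.9) overlapped Afg3l2 (55.6 to 56.1), and Yme1l1 was lowest (31.0 to 47.2).

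**Figure D4:**
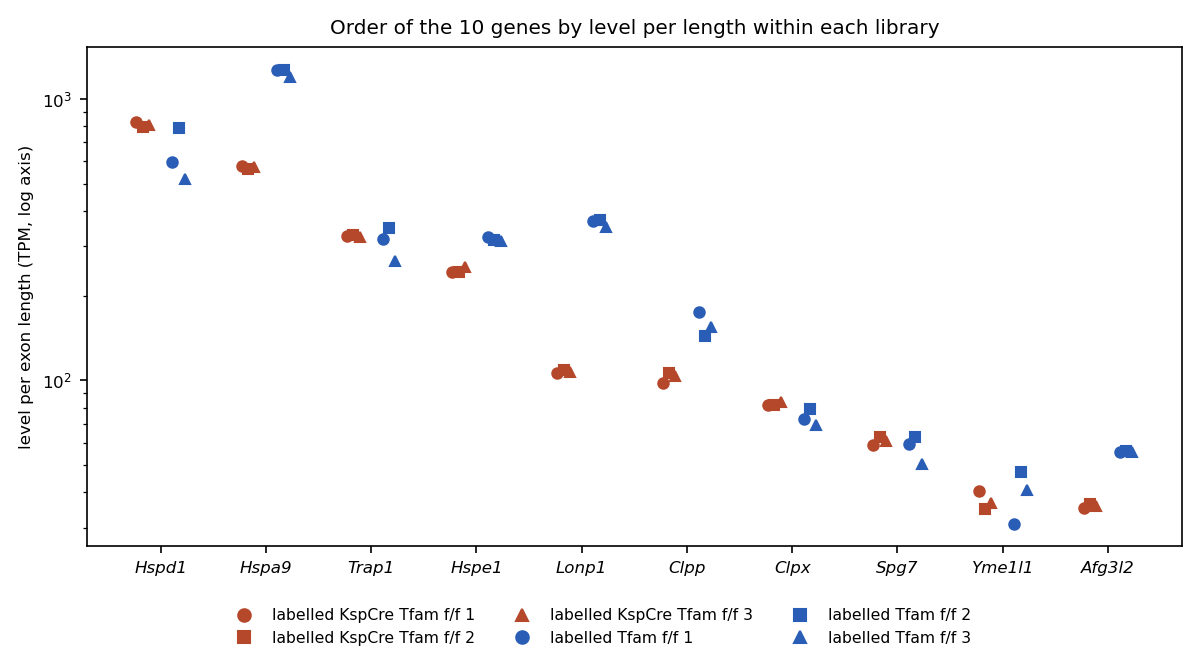
Level of each gene per exon length (TPM, log axis) in every library, with genes ordered by their mean in KspCre-labelled libraries (red, left) and Tfam f/f-labelled libraries in blue. Hspd1 leads among the red points and Hspa9 among the blue ones, and Lonp1 stands below Hspe1 among the red and above it among the blue.

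Whether the summed level of the 10 genes separated the labels depended on the scaling. On the TMM scale the values overlapped, and the sum averaged 3262 ± 27.9 normalized CPM in KspCre-labelled libraries and 3196 ± 483 in Tfam f/f-labelled libraries (SD, n = 3 each; exact two-sided permutation p = 1). By the same exact test, the 4 chaperone genes averaged 2487 ± 13.0 in KspCre-labelled libraries and 2315 ± 374 in Tfam f/f-labelled libraries (p = 0.7). The 6 protease genes averaged 775 ± 14.9 in KspCre-labelled libraries and 881 ± 109.5 in Tfam f/f-labelled libraries (exact p = 0.4). On that scale the differences for all 10 genes and for the chaperones changed sign without Tfam f/f-labelled replicate 3 (-205 and -37.5). As a share of raw totals, the 10 genes summed to 2822, 2806 and 2813 CPM in KspCre-labelled libraries, against 3815, 3911 and 3328 in Tfam f/f-labelled libraries. These values did not overlap (exact two-sided permutation p = 0.1, the smallest possible). The chaperones (2145 ± 13.4 in KspCre-labelled libraries and 2667 ± 255 in Tfam f/f-labelled libraries) and the proteases (669 ± 5.23 in KspCre-labelled libraries and 1017 ± 57.8 in Tfam f/f-labelled libraries) did not overlap either, with the same exact p of 0.1 each.

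Tfam f/f-labelled libraries varied more. The coefficient of variation of the 10 genes ran from 0.699% to 6.01% in KspCre-labelled libraries and from 9.78% to 29.1% in Tfam f/f-labelled libraries. It was larger in Tfam f/f-labelled libraries for all 10 genes, and for 81.2% of all genes tested. Among Tfam f/f-labelled libraries, replicate 3 was the lowest for 9 of the 10 genes, with Yme1l1 as the exception, and for 35.6% of all genes tested. Counted against total counts, without TMM factors, replicate 3 was the lowest for 8 of the 10.

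Cell type markers moved with the labels and with these replicates. Summed levels of 14 proximal tubule markers, 12 of them higher and 2 not passing, ran from 53970 to 56450 normalized CPM in KspCre-labelled libraries. In Tfam f/f-labelled replicates 1, 2 and 3 they were 10900, 17800 and 4163. On the TMM scale, Hspd1, Hspa9, Trap1, Lonp1, Clpx, Afg3l2 and Spg7 had the same order among these replicates, whatever their direction between the labels. Replicate 2 was the highest for 8 of the 10 genes on that scale, and for 35.6% of all genes tested. Counted against total counts, replicate 2 was the highest for 5 of the 10, so the order depended on the scaling. Of 15 macrophage markers, 13 were lower in KspCre-labelled libraries and 2 did not pass, with sums of 279 to 342 there, against 858, 477 and 1480 in Tfam f/f-labelled replicates 1, 2 and 3. In whole kidney, fewer cells of a type and less RNA per cell cannot be told apart, and the part of cell composition in the 10 genes was not tested.

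The remaining marker lists describe the tissue. Of 15 distal nephron markers, 8 were higher and 1 lower, with sums of 11650 to 12680 normalized CPM in KspCre-labelled libraries and 4763 to 7979 in Tfam f/f-labelled libraries. Of 11 tested lymphocyte markers, 4 were lower (64.0 to 114 in KspCre-labelled libraries and 235 to 524 in Tfam f/f-labelled libraries). Of 12 podocyte and endothelial markers, 3 were higher (679 to 745 in KspCre-labelled libraries and 433 to 685.5 in Tfam f/f-labelled libraries). Of 11 fibroblast and mural markers, 4 were higher and 3 lower (425 to 508 in KspCre-labelled libraries and 453 to 545 in Tfam f/f-labelled libraries). Of 6 tested markers of brown fat and adrenal gland, edgeR and limma voom each called 0, as did DESeq2 of the 5 it tested, and 1 had an unadjusted p below 0.05 in edgeR. Their sums were 31.2 to 46.2 in KspCre-labelled libraries and 29.6 to 95.0 in Tfam f/f-labelled libraries, and the adrenal enzymes Cyp11b1 and Cyp11b2 were listed at 0 in every library. Markers of proximal tubule and distal nephron were present in every library, as the label kidney requires. Library totals over genes were 30348281 to 48899266 counts for KspCre-labelled libraries and 19024208 to 34821537 for Tfam f/f-labelled libraries.

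Other genes of the pathway were read from lists. The co-chaperones and folding factors around Hspa9 and Hspd1 mostly did not pass: of 11, only Dnajc19, which stimulates Hspa9 at the import channel, was called. It averaged 73.7 ± 0.92 normalized CPM in KspCre-labelled libraries and 36.1 ± 10.1 in Tfam f/f-labelled libraries (2.04-fold higher, adjusted p = 0.00507). The median log2 fold change of this list was -0.011.

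Of 19 other mitochondrial proteases and their scaffolds, 9 were higher, 2 lower and 8 did not pass, with a median log2 fold change of 0.32. The count of higher genes was 5 without KspCre-labelled replicate 2 or 3, and that of lower genes 0 without KspCre-labelled replicate 1 or 2 and 1 without KspCre-labelled replicate 3 or Tfam f/f-labelled replicate 1 or 2. Lactb, a serine protease-like protein of the intermembrane space, was 1.72-fold higher (81.1 ± 1.95 normalized CPM in KspCre-labelled libraries and 47.1 ± 4.76 in Tfam f/f-labelled libraries, adjusted p = 0.00117). Immp1l, a subunit of the inner membrane peptidase, was 1.6-fold higher (adjusted p = 0.00255), but was not called with total counts (0.115). Its partner subunit Immp2l was 1.79-fold lower (adjusted p = 0.0262), at 3.77 ± 0.59 normalized CPM in KspCre-labelled libraries and 6.75 ± 1.87 in Tfam f/f-labelled libraries. The call of Immp2l was lost without KspCre-labelled replicate 1, 2 or 3 (adjusted p = 0.0684, 0.0655 and 0.102) and without Tfam f/f-labelled replicate 1 or 2 (0.0978 and 0.0635). Htra2, a serine protease of the intermembrane space, was 1.41-fold lower (adjusted p = 0.0119), and its call was lost without KspCre-labelled replicate 1 or 2 (0.0519 and 0.0512).

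Of 14 genes whose proteins are known to be cut or degraded by mitochondrial proteases, 9 were higher and 5 did not pass, with a median log2 fold change of 0.38. Apart from Tfam, the smallest p was for Pink1, the kinase that marks damaged mitochondria, at 304 ± 16.3 normalized CPM in KspCre-labelled libraries and 159 ± 39.5 in Tfam f/f-labelled libraries (1.91-fold higher, adjusted p = 0.00764). Without KspCre-labelled replicate 1, 2 or 3 the count of 9 was 3, 2 and 2. Of 17 tested genes of the import channels, 5 were higher, 2 lower and 10 did not pass (median log2 fold change 0.19). The count of higher genes was 3, 2 and 2 without KspCre-labelled replicate 1, 2 and 3. Set against that median of 0.19, the log2 fold changes of the 10 genes ran from -1.33 for Lonp1 to 0.78 for Hspd1, with -0.18 for Clpp, -0.20 for Afg3l2 and 0.071 for Hspe1. Timm9, a small chaperone of the intermembrane space (1.57-fold, adjusted p = 0.00263), and the outer membrane receptor Tomm70a (1.46-fold, adjusted p = 0.00684) were higher, except that neither was called with total counts (0.0719 and 0.330). The outer membrane channel Tomm40 was 1.47-fold lower (adjusted p = 0.00917). Timm10, the partner of Timm9, was 1.40-fold lower (adjusted p = 0.0445). The call of Timm10 was lost without any 1 library except Tfam f/f-labelled replicate 3 (adjusted p of 0.0635 to 0.149). With all libraries kept, it was also lost with DESeq2 size factors (0.0613), DESeq2 (0.0640), limma voom (0.0510) and the replicate block (0.0699). Timm10 was called in 8 of the 17 alternatives.

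The list of transcription factors and other regulators linked to mitochondrial stress held the largest differences of these lists. Of its 12 genes, 4 were lower, 2 higher and 6 did not pass, with a median log2 fold change of -0.046. Trib3, a feedback pseudokinase that is a target of ATF4 and CHOP, had 0.754 ± 0.18 normalized CPM (41, 27 and 17 counts) in KspCre-labelled libraries and 168 ± 45.8 in Tfam f/f-labelled libraries (log2 fold change -7.77, SE 0.30, adjusted p = 9.68e-06). Atf5, a stress transcription factor, had 10.2 ± 1 normalized CPM in KspCre-labelled libraries and 173 ± 17.7 in Tfam f/f-labelled libraries (17-fold lower, SE 0.13 in log2, adjusted p = 5.77e-06). Hsf2, a heat shock factor (1.47-fold, adjusted p = 0.0113), and Gabpa, an activator of nuclear genes for mitochondria (1.49-fold, adjusted p = 0.0165), were higher, but neither was called with total counts (0.497 and 0.315). The Gabpa call was also lost without KspCre-labelled replicate 1 or 3 (0.0594 and 0.0617) or Tfam f/f-labelled replicate 1 (0.0662). Atf4 (log2 fold change -1.33, adjusted p = 0.000343) and Ddit3, the gene of CHOP (-3.53, adjusted p = 2.31e-05), were the other lower genes. Lonp1 was called in the direction of these 4 genes, as were 24.9% of all genes tested, and Hspd1 in the other. A link between these regulators and the 10 genes was not tested.

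Cytosolic chaperones went both ways. Of 20, 5 were higher, 6 lower and 9 did not pass, with a median log2 fold change of 0.019. The HSP40 gene Dnajb1 (1.72-fold, adjusted p = 0.00228) and Hsph1, an HSP110 (2.04-fold, adjusted p = 0.0028), were higher in all 17 alternatives. The small heat shock proteins Hspb8 (6.41-fold, adjusted p = 0.00028) and Hspb1 (4.27-fold, adjusted p = 0.00186) were lower in all 17. Hspb8 averaged 4.95 ± 0.38 normalized CPM in KspCre-labelled libraries and 31.8 ± 9.67 in Tfam f/f-labelled libraries. Without KspCre-labelled replicate 1, 2 or 3, or Tfam f/f-labelled replicate 1, the count of 6 lower genes was 3 each time.

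**Figure D5:**
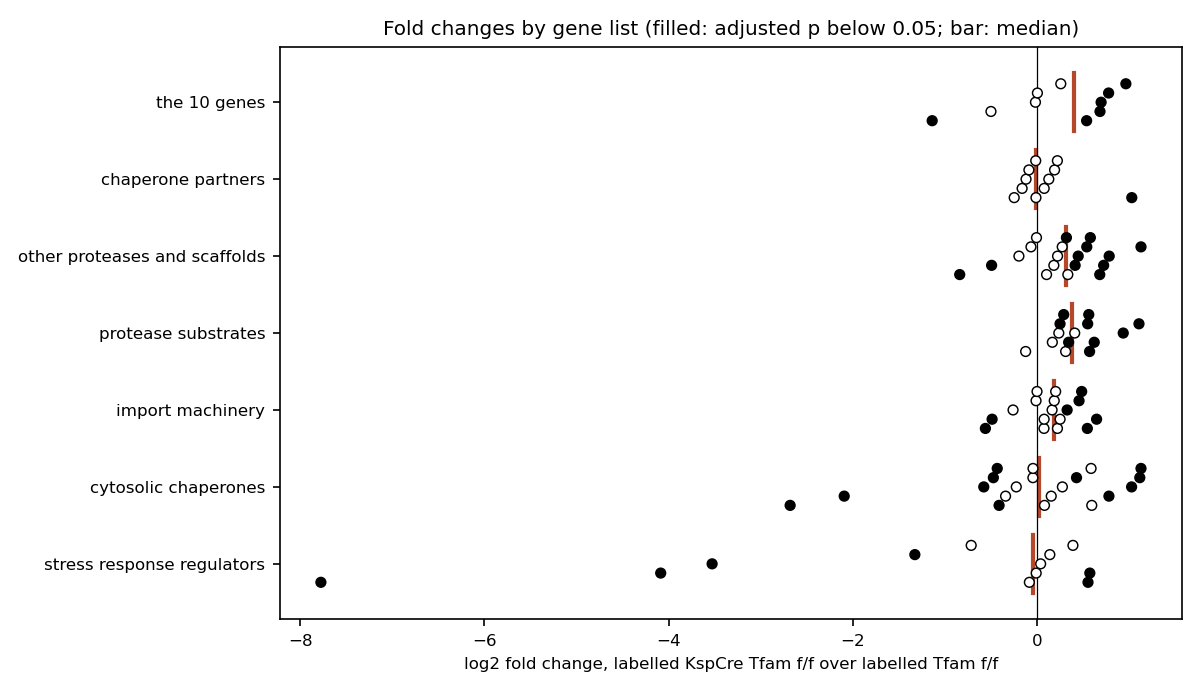
Log2 fold change, KspCre-labelled over Tfam f/f-labelled libraries, of each tested gene in the 10 genes and in 6 pathway lists, filled where the adjusted p was below 0.05, with a red bar at the median of each list. The 10 genes span -1.14 to 0.96, and the farthest points of all are regulators of the stress response, led by the pseudokinase gene Trib3 at -7.77.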

How the data were processed

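Poly A+ RNA of whole kidney was sequenced in 6 strand-specific libraries as pairs of 150 bases, per the labels' protocols. What the authors deposited is whole-number counts per gene, with no normalization. FastQC, Trim Galore, STAR 2.4.1d, HTSeq 0.11.0 and build mm10 are named, per the submitters' processing notes. The strand setting and the annotation release: not given in the sources used here. The 5 summary lines of each file (16.0% to 20.4% of its total) were left out.

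The main test was that of edgeR 4.0.16 (R 4.3.3): filterByExpr (minimum count 10, total 15), TMM factors, robust quasi-likelihood fit, Benjamini-Hochberg adjustment over 17308 genes, called below 0.05. Fold changes are KspCre-labelled over Tfam f/f-labelled libraries, and SE comes from the fold change and F. Ratios and sums used an exact permutation test. Alternatives included DESeq2 1.42.0, limma 3.58.1, other scalings and filters, and each library left out. Exon lengths and positions came from GENCODE M21 (54079 of 54146 identifiers), promoters from RefSeq. The procedure was also run on simulated data with few changed genes and the same dispersion under both labels. Those settings differ from these data, so that run cannot give the error rate here.

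Members, lists and tests were chosen with earlier results of these data known. Named were the 10 genes, Tfam, 5 compartment paralogs and, per list, up to 2 called genes with the smallest p in each direction. Afg3l1, Atf4 and Ddit3 were added after their values were seen. Libraries of a label differed beyond sampling noise (chi-square per degree of freedom of at least 6.57), and none was treated as a duplicate. Protein sequences were not used here.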

Additional observations from a re-analysis of the deposited data

How the results depend on the processing

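Of the 10 genes, Lonp1 and Clpx kept direction and call in all 17 alternatives, and Hspd1 and Spg7 in 16. Total counts without TMM factors, chosen after seeing the data, moved most: called members became 2 higher and 4 lower, called genes 1680 and 8512, and the log2 fold change turned for Hspe1 (-0.16), Clpp (-0.42) and Hspa5 (-0.089). Called counts, higher and lower, were then 3 and 5 for other proteases, 2 and 1 for substrates, 0 and 8 for stress factors, 3 and 11 for cytosolic chaperones, 0 and 6 for import and 0 and 2 for paralogs, with 7 chaperone partners lower. The value of Clpp also turned with upper-quartile factors (-0.070), a minimum count of 50 (-0.013) and thinning (-0.0076), and that of Afg3l2 with DESeq2 size factors and DESeq2 (0.015 each). Lower members numbered 2 with upper-quartile factors, DESeq2 and both limma fits. Chaperone partners had 2 higher with DESeq2 size factors, and import genes 3 higher with upper-quartile factors and 1 lower with DESeq2 size factors, DESeq2 and limma voom. Of the paralogs, 2 were higher with DESeq2 size factors, without mitochondrial DNA-encoded genes or without a filter, 3 with DESeq2 (and 1 lower) and both limma fits. Summed differences were -871, -522.5 and -349 CPM (10 genes, chaperones, proteases) with raw totals, -875, -521 and -353.5 after thinning, and -667, -361 and -306 without mitochondrial DNA-encoded genes.

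The replicate block, on numbers that do not pair the libraries, gave 5 members higher and 1 lower, 3227 and 3586 called genes, 3 cytosolic chaperones lower, 3 import genes higher and 1 lower, and 0 paralogs higher. No library correlated best with the one of its own number (correlations of deviations from the label means -0.17, -0.070 and -0.071).

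With each library left out, called members were 2 to 5 higher and 1 to 2 lower, and called genes 2276 to 4652 and 2822 to 4942. Higher and lower counts were 1 to 2 and 0 to 1 for chaperone partners, 5 to 10 and 0 to 2 for other proteases, 2 to 9 higher for substrates, 1 to 3 higher for stress factors, 3 to 7 lower for cytosolic chaperones, 2 to 7 and 1 to 2 for import, and 0 to 3 higher for paralogs. The log2 fold change ran from -0.088 to 0.14 for Clpp and from -0.099 to 0.054 for Afg3l2, and the summed difference from -205 to 260.2 for the 10 genes and -37.5 to 322 for chaperones. The cause of these moves was not tested.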
